A study of Homo sapiens with 11 samples.

Results

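The abundant long noncoding RNAs (lncRNAs) of HEK293T cells are the 200 genes with the highest mean level among the 14886 listed genes whose deposited biotype was lincRNA, antisense, sense_intronic, sense_overlapping or processed_transcript. Level was CPM, the count of a gene divided by the total of its library and scaled to a common total, averaged over all 11 libraries, so the members were chosen by these measured values and their high level is a description and not a result. Of the 14886 genes, 9033 had a count in at least 1 library, and the table listed 58735 genes in all. The study asked which genes depend on the ubiquitin-like protein URM1 and on NAE1 and UBE2M, which it examined as candidate activating and conjugating enzymes of URM1. Per the paper, NAE1 and UBE2M are also known to serve neddylation, the attachment of another ubiquitin-like protein, NEDD8. HEK293T, a human embryonic kidney line, was transfected with small interfering RNA (siRNA) and harvested after 48 h: 50 nM against NAE1 (siNAE1, n = 3), 70 nM against UBE2M (siUBE2M, n = 3) or 60 nM against URM1 (siURM1, n = 2). The 3 control libraries are labelled as receiving a control siRNA, and the methods list a non-targeting one, while the treatment text of the labels names only the siRNAs against the 3 genes. All libraries came from polyadenylated RNA of this 1 line. The labels number them as biological replicates.

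A lncRNA is a transcript that is not read into a long protein. Some act as RNA: NEAT1 is the scaffold of nuclear paraspeckles, MALAT1 concentrates in nuclear speckles, and NORAD binds the Pumilio proteins. Others are host genes, whose introns carry small nucleolar RNAs (snoRNAs) that guide modification of ribosomal RNA or whose transcript is cut into microRNAs, and many start close to, or run opposite to, a protein-coding gene.

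The siRNAs lowered their targets, to 35.7% of the control mean for NAE1, 6.08% for UBE2M and 26.9% for URM1. Total counts ran from 11733163 to 16321391 per library, so that 1 count was worth 0.0613 to 0.0852 CPM, and the lowest count of any member in any library was 31. Of the HEK293 genes checked, NEFM ran from 69.8 to 187 CPM, whereas the liver marker ALB stayed at or below 0.624 CPM and the kidney marker UMOD was at 0 in every library. In bulk RNA such as this, fewer cells of a type and less RNA per cell cannot be told apart.

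By biotype, 77 members were antisense, 72 lincRNA, 39 processed_transcript, 7 sense_overlapping and 5 sense_intronic. The processed_transcript class made up 19.5% of the members and 4.03% of the listed genes of these biotypes. On the deposited coordinates (GRCh38), 103 members overlapped a protein-coding gene on the opposite strand, and 73 started within 1000 bases of the start of such a gene. A listed same-strand gene for a snoRNA or the related small Cajal body RNA overlapped 22 members, and a microRNA gene 14. By this count GAS5, a known snoRNA host, had 0 snoRNA genes. On their own strand, 27 members overlapped a coding gene, where the division of shared reads depends on counting settings that were not given in the sources used here.

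The members' mean levels were low apart from a few: their median was 20.4 CPM, and 18 of the 200 reached 100 CPM. SREBF2-AS1 and LINC01515, the last members by rank, had means of 11.85 and 11.78 CPM, while the next genes below, AL022328.4 and CTC-338M12.4, had 11.73 and 11.69. The limit thus cuts through a continuous range of levels. All 200 members passed the filter on low counts and were tested. For the most abundant member the calls are counted here and no level is given. Over all members, the ratio of the highest to the lowest group mean had a median of 1.65 and reached 9.11 in AC093157.1, and it was under 1.5 in 70 members and over 2 in 62.

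Per library, the members other than the most abundant took 1.01%, 1.02% and 0.976% of all counts in the control cells. The shares were 0.915%, 0.877% and 0.903% after siNAE1, 0.841%, 0.847% and 0.836% after siUBE2M, and 0.826% and 0.893% after siURM1. The group means were 1.00% ± 0.0251 (SD, n = 3) in control, 0.899% ± 0.0195 (n = 3), 0.842% ± 0.00581 (n = 3) and 0.859% ± 0.0473 (n = 2), and each of the 8 knockdown libraries was below the lowest control library. The same CPM values chose the members, so the shares are a description, with no test. A share depends on what the other genes take: scaled by library totals in place of TMM (trimmed mean of M-values), the median log2 fold change of all tested genes was itself -0.13, -0.05 and -0.11 in the 3 knockdowns. Fold changes below are on the TMM scale, on which those medians were 0.00, 0.01 and -0.02, while CPM values are on library totals.

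**Figure D1:**
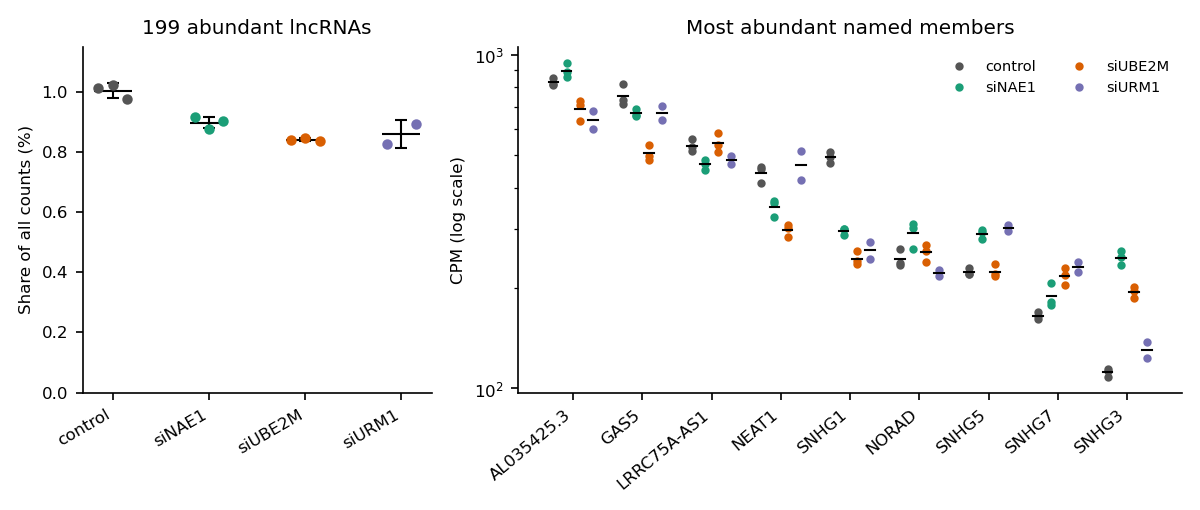
Left, share of all counts (%) in the abundant lncRNAs (without the most abundant) for each library (points), with the mean and SD of each group; right, CPM on a log axis of the 9 most abundant members named, with points for libraries and a line for the group mean. The control shares lie between 0.976% and 1.02%, above all 8 knockdown libraries, and SNHG1 is lower and SNHG7 higher than control in each knockdown group.

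AL035425.3, a sense_overlapping gene (chrX:108719949-108724944, minus strand), was the highest member named, at 851, 819 and 815 CPM in the control libraries, 948, 888 and 859 after siNAE1, 708, 727 and 634 after siUBE2M and 599 and 681 after siURM1. The siNAE1 libraries were the highest, and those of siUBE2M and siURM1 lay below all controls, with log2 fold changes of 0.24 ± 0.06 (adjusted p = 7.1e-04), -0.21 ± 0.06 (adjusted p = 0.0042) and -0.28 ± 0.07 (adjusted p = 6.6e-04). GAS5, a host of snoRNAs whose RNA accumulates in growth-arrested cells, was at 734, 818 and 711 CPM in the control libraries, 657, 660.0 and 687 after siNAE1, 499, 484 and 539 after siUBE2M and 639.7 and 704 after siURM1. All siUBE2M libraries lay below the other 8, with a log2 fold change from control of -0.51 ± 0.06 (adjusted p = 5.8e-09). NEAT1 had 457, 461 and 412 CPM in the control libraries, 361, 328 and 364 after siNAE1, 303, 310.2 and 285 after siUBE2M and 421 and 517 after siURM1. All siNAE1 and siUBE2M libraries were below all controls, with log2 fold changes of -0.21 ± 0.06 (adjusted p = 0.0047) and -0.51 ± 0.06 (adjusted p = 1.3e-08). After siURM1 its 2 libraries straddled the highest control, and the change was 0.17 ± 0.07 (adjusted p = 0.052).

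SNHG1, another snoRNA host, had 495, 513 and 476 CPM in the control libraries, 301, 288 and 301 after siNAE1, 241, 236 and 258 after siUBE2M and 244 and 275 after siURM1. Every knockdown library was below every control library, with log2 fold changes of -0.61 ± 0.06 (adjusted p = 8.0e-12), -0.95 ± 0.06 (adjusted p = 3.9e-17) and -0.84 ± 0.07 (adjusted p = 1.2e-13), just short of the 2-fold threshold in siUBE2M. NORAD was higher after siNAE1 (311, 304 and 262 CPM against 235, 238 and 262), with 0.38 ± 0.06 (adjusted p = 1.5e-06), and gave 0.12 ± 0.06 (adjusted p = 0.1) and -0.05 ± 0.07 (adjusted p = 0.59) in the other knockdowns. SNHG5 and SNHG7, both snoRNA hosts, gave 0.51, 0.06 and 0.53 and 0.32, 0.45 and 0.58. LRRC75A-AS1 had log2 fold changes of -0.06, 0.08 and -0.05, with adjusted p of 0.41, 0.28 and 0.59. Per length, in the deposited FPKM (fragments scaled by gene length and library size), GAS5 led the named members with a mean level of 177, followed by AL035425.3 at 154, LRRC75A-AS1 at 135 and SNHG19, whose listed length is 342 bases, at 95.

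A member was called higher or lower when the Benjamini-Hochberg adjusted p of edgeR's quasi-likelihood test over all 18368 tested genes was under 0.05 and its level changed at least 2-fold. After siNAE1, 29 of the 200 members were called lower, or 14.5% against 8.64% of all tested genes, and 11 were called higher, or 5.5% against 5.29%. After siUBE2M, 15 members were lower (7.50%, against 3.89% of all genes) and 1 was higher (0.50% against 3.21%). After siURM1, 21 were lower (10.5% against 4.76%) and 3 higher (1.5% against 2.89%). These comparisons share the same 3 control libraries. For the mean of the 3 knockdowns against control, 24 members were lower (12% against 5.33%) and 2 higher (1.00% against 2.36%). The share of members called lower was thus above that of all genes in each comparison with control, and the share called higher was close to or below it.

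By adjusted p alone, with no threshold on size, 145, 134 and 121 members passed in siNAE1, siUBE2M and siURM1, against 54.8%, 45.4% and 41.9% of all genes. Members also have more counts than most genes, and nothing is read from these larger shares. The median log2 fold change of the members was -0.09, -0.02 and -0.06, and the SD between libraries of a group in the members' median was 0.03 to 0.07. The 3 siNAE1 library medians lay below those of all controls, while the siUBE2M and siURM1 libraries overlapped the controls. Members lay on both sides of 0 in each knockdown. Among the other 2572 tested genes of these biotypes, which have lower counts, 18.3%, 7.97% and 9.95% were called lower, and among 14011 protein-coding genes 6.58%, 3.00% and 3.58%.

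**Figure D2:**
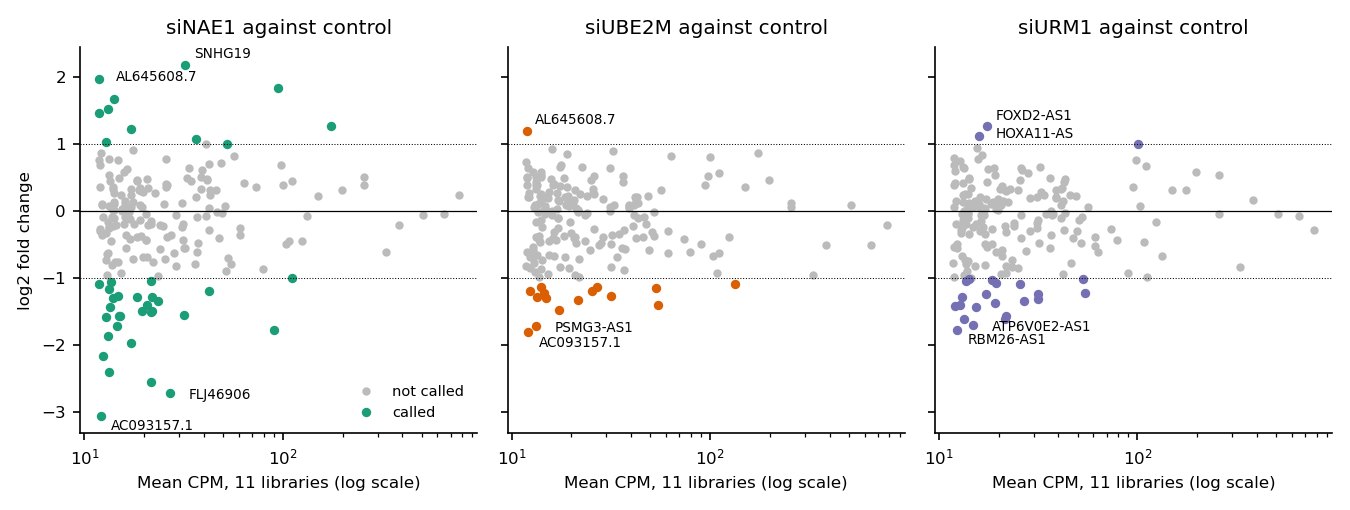
log2 fold change of the members but the most abundant against control (y axis) by mean CPM over 11 libraries (x axis, log scale) for siNAE1, siUBE2M and siURM1; coloured points were called, with dotted lines at 2-fold changes. Most called members lie below 0, down to -3.06 for AC093157.1 after siNAE1, and few members above 100 CPM were called.

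The member that fell furthest was AC093157.1, an antisense gene at chr1:101025878-101087268, plus strand, whose start lies 210 bases from that of DPH5, a gene for an enzyme of diphthamide synthesis. Its levels were 28.5, 26.8 and 26.9 CPM in the control libraries, 3.46, 2.92 and 2.64 after siNAE1, 7.80, 7.00 and 7.77 after siUBE2M and 8.52 and 10.8 after siURM1. The siNAE1 libraries were the lowest and all 8 knockdown libraries lay below all controls, with log2 fold changes of -3.06 ± 0.15 (adjusted p = 2.7e-21), -1.81 ± 0.13 (adjusted p = 1.8e-15) and -1.42 ± 0.14 (adjusted p = 3.9e-11). PSMG3-AS1 (chr7:1570073-1589626, plus strand), which starts opposite the proteasome assembly chaperone gene PSMG3, was at 28.7, 31.8 and 27.1 CPM in the control libraries, 4.82, 5.43 and 4.86 after siNAE1, 8.61, 8.27 and 8.74 after siUBE2M and 9.62 and 8.31 after siURM1. No knockdown library reached 10 CPM, and its log2 fold changes were -2.41 ± 0.13 (adjusted p = 2.2e-19), -1.72 ± 0.12 (adjusted p = 2.2e-15) and -1.61 ± 0.14 (adjusted p = 7.1e-13).

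LINC00174 (chr7:66376044-66493566, minus strand) had 45.8, 46.9 and 43.5 CPM in the control libraries, 8.43, 6.56 and 6.39 after siNAE1, 18.5, 18.6 and 15.1 after siUBE2M and 13.6 and 15.2 after siURM1. It fell in each knockdown, with log2 fold changes of -2.55 ± 0.12 (adjusted p = 4.3e-22), -1.33 ± 0.11 (adjusted p = 3.6e-14) and -1.57 ± 0.12 (adjusted p = 3.0e-14). FLJ46906 (chr6:138692548-138697288, plus strand), whose start is 23 bases from that of NHSL1, had 51.1, 56.1 and 54.5 CPM in the control libraries, 7.52, 6.29 and 9.03 after siNAE1, 22.2, 24.5 and 24.3 after siUBE2M and 18.4 and 21.5 after siURM1. The siNAE1 libraries again stood lowest, and the fold changes were -2.71 ± 0.12 (adjusted p = 2.0e-23), -1.13 ± 0.10 (adjusted p = 8.7e-13) and -1.35 ± 0.12 (adjusted p = 4.7e-13). RBM26-AS1 (chr13:79406309-79424328, plus strand), opposite the RNA-binding protein gene RBM26, had 23.3, 24.7 and 27.4 CPM in the control libraries, 4.97, 5.83 and 4.43 after siNAE1, 10.3, 11.7 and 9.504 after siUBE2M and 7.72 and 6.06 after siURM1. The siURM1 libraries lay between those of siNAE1 and siUBE2M, with fold changes of -2.17 ± 0.14 (adjusted p = 4.9e-17), -1.20 ± 0.13 (adjusted p = 1.7e-10) and -1.77 ± 0.15 (adjusted p = 7.6e-13).

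**Figure D3:**
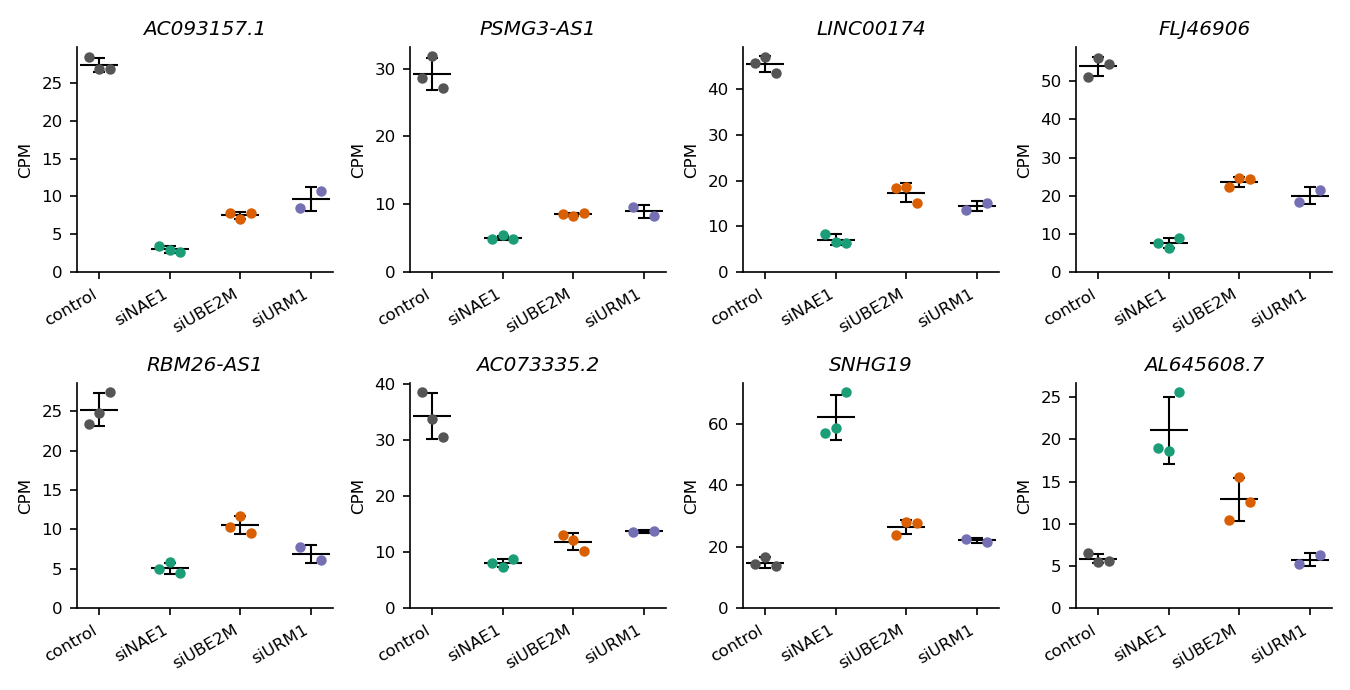
CPM in each library (points) with group mean and SD for the 6 members lowest and the 2 highest by the mean of the 3 knockdowns against control; each y axis starts at 0. In the first 6 panels all knockdown libraries lie below all controls, whereas SNHG19 and AL645608.7 are highest after siNAE1.

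Among the other members that fell, some were called in each knockdown and others in 1 or 2. AC073335.2 (chr7:66902857-66906297, plus strand) fell in each, with log2 fold changes of -1.97, -1.48 and -1.24, as did ATP6V0E2-AS1, opposite a subunit gene of the vacuolar proton pump, with -1.57, -1.29 and -1.70. AC015813.1, at a mean of 145 ± 9.98 CPM in control cells (SD, n = 3), changed by -1.77 ± 0.08 (adjusted p = 1.5e-22) after siNAE1, -0.93 ± 0.09 (adjusted p = 4.5e-12) after siURM1 and -0.49 ± 0.07 (adjusted p = 5.2e-07) after siUBE2M. AC084033.3 was called lower after siNAE1, at -1.86 ± 0.14 (adjusted p = 4.4e-15), and siURM1, at -1.28 ± 0.15 (adjusted p = 1.8e-09), and gave -0.91 ± 0.13 (adjusted p = 9.9e-08) after siUBE2M. TMCC1-AS1 had the same 2 calls, at -1.58 ± 0.15 (adjusted p = 3.9e-12) and -1.40 ± 0.17 (adjusted p = 2.7e-09).

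SLC16A1-AS1 and PCBP1-AS1 were called after siUBE2M and siURM1. SLC16A1-AS1, whose opposite-strand neighbour SLC16A1 encodes the lactate transporter MCT1, was at 92.7, 90.99 and 94.7 CPM in the control libraries, 55.3, 46.2 and 46.4 after siNAE1, 34.01, 34.5 and 32.5 after siUBE2M and 33.1 and 41.8 after siURM1. All knockdown libraries lay below all controls, and the fold changes were -0.79 ± 0.08 (adjusted p = 2.9e-11), -1.40 ± 0.08 (adjusted p = 4.8e-18) and -1.22 ± 0.09 (adjusted p = 2.0e-14). PCBP1-AS1, opposite the poly(C)-binding protein gene PCBP1, changed by -1.27 ± 0.09 (adjusted p = 5.4e-15) and -1.25 ± 0.11 (adjusted p = 5.9e-13), and its value after siNAE1 was -0.55 ± 0.09 (adjusted p = 2.0e-06). LINC00909 was called lower after siNAE1 (-1.16) and siUBE2M (-1.29) and had -0.96 ± 0.14 (adjusted p = 2.1e-07) after siURM1. AC016205.1 was called after siURM1 alone among the 3, at -1.44 ± 0.15 (adjusted p = 6.4e-11), with -0.93 and -0.66 in the others.

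Fewer members rose. SNHG19, a host of 2 listed snoRNA genes that starts 340 bases from the start of TRAF7, a signalling protein gene (chr16:2154797-2155358, minus strand), had 14.3, 16.7 and 13.6 CPM in the control libraries, 57.2, 58.7 and 70.5 after siNAE1, 23.8, 28.1 and 27.7 after siUBE2M and 22.7 and 21.6 after siURM1. All knockdown libraries were above all controls, with log2 fold changes of 2.18 ± 0.10 (adjusted p = 8.2e-22), 0.89 ± 0.11 (adjusted p = 3.8e-09) and 0.66 ± 0.12 (adjusted p = 1.6e-05). AL645608.7 (chr1:995966-998051, minus strand) had 6.496, 5.48 and 5.60 CPM in the control libraries, 18.96, 18.6 and 25.7 after siNAE1, 10.5, 15.6 and 12.6 after siUBE2M and 5.21 and 6.26 after siURM1. It rose after siNAE1 and siUBE2M, by 1.96 ± 0.15 (adjusted p = 1.1e-14) and 1.20 ± 0.16 (adjusted p = 2.8e-08), and in siURM1 the libraries overlapped the controls, with 0.05 ± 0.19 (adjusted p = 0.85).

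The other rises in siNAE1 were led by snoRNA hosts, described below, and by KCNQ1OT1, the long antisense RNA of the imprinted KCNQ1 locus. KCNQ1OT1 had 9.11, 7.91 and 7.45 CPM in the control libraries, 22.04, 20.01 and 22.7 after siNAE1, 9.51, 12.3 and 9.92 after siUBE2M and 11.7 and 12.5 after siURM1. The siNAE1 libraries stood clear of the rest, with 1.52 ± 0.13 (adjusted p = 1.3e-13), against 0.44 ± 0.14 (adjusted p = 0.0082) and 0.66 ± 0.15 (adjusted p = 3.2e-04). AC139530.1, which starts 57 bases from the mitochondrial ribosomal protein gene MRPL12, rose by 1.47 ± 0.14 (adjusted p = 3.0e-12) after siNAE1, and AC008124.1 by 1.23 ± 0.12 (adjusted p = 1.0e-11). After siURM1 the members called higher were FOXD2-AS1, HOXA11-AS and SNHG16. FOXD2-AS1 had 12.04, 12.6 and 8.96 CPM in control libraries and 27.5 and 23.3 after siURM1, a change of 1.27 ± 0.16 (adjusted p = 2.5e-07), and it gave 0.90 and 0.65 in the other knockdowns. SNHG16 sat on the threshold, at 1.00 ± 0.07 (adjusted p = 5.6e-15), and lost its call without control replicate 2 (0.96) or siURM1 replicate 2 (0.95).

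Start regions are shown for the members at both ends of the mean contrast and for the most abundant snoRNA host, so that the sequences beside these changes can be compared. They run from 250 bases before to 50 after the RefSeq start, and were found for 112 of the members (RefSeq, GRCh38.p14). AC093157.1 and AL645608.7 had no entry. For GAS5 the RefSeq start lies upstream of the gene as deposited, so that its region does not hold the deposited start. Capitals mark matches, on either strand, to the letters CCAAT, to TATAAA or to GAANNTTC, the core of the heat shock element. The start regions of PSMG3-AS1 and RBM26-AS1 held none of the 7 motifs searched.
PSMG3-AS1 (chr7:1569823-1570122, plus strand): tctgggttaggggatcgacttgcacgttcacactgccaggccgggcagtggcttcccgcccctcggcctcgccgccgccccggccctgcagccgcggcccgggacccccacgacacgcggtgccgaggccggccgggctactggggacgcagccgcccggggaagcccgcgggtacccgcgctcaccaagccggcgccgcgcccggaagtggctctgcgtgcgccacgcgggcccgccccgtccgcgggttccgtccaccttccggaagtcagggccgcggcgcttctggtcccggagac
RBM26-AS1 (chr13:79406059-79406358, plus strand): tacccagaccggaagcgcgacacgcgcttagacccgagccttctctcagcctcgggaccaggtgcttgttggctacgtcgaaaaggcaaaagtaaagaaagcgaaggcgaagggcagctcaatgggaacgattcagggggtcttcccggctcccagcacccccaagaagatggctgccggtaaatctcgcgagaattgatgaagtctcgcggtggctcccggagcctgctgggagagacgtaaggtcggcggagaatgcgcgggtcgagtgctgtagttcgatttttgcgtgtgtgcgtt
SNHG19 (chr16:2155309-2155608, minus strand): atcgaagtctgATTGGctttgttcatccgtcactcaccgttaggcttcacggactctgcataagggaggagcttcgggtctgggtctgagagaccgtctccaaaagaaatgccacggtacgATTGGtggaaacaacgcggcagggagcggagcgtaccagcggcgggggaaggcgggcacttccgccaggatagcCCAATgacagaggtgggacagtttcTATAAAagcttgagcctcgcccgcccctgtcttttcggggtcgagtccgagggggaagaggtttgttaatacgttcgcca
GAS5 (chr1:173868996-173869295, minus strand): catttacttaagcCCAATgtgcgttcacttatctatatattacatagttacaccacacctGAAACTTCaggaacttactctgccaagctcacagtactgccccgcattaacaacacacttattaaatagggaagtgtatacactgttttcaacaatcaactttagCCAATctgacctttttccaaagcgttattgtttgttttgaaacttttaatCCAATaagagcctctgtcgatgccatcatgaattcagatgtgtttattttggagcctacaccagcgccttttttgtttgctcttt
The other motifs searched were the cyclic AMP response element TGACGTCA, the C/EBP-ATF composite TGATGNAA, the antioxidant element TGACNNNGC and the E-box CACGTG, each on both strands. CCAAT was in 40.2% of the 112 members' start regions and in 35.7% of all 27305 RefSeq start regions, and the antioxidant letters in 16.1% and 13.6%. The same shares were 9.82% and 7.43% for the E-box, 2.68% and 1.98% for the cyclic AMP element, 7.14% and 12% for TATAAA, 1.79% and 6.87% for the heat shock letters, and 0% and 3.67% for the composite. The median GC content was 63.3% in the members and 58.3% in all. In the 12 members called lower by the mean contrast that had an entry it was 69.8%, from 58.7% in RBM26-AS1 to 77.3% in PSMG3-AS1 among those printed.

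The snoRNA host genes, whose introns release snoRNAs while the spliced RNA remains, moved in both directions. Of a list of 39 names, 23 genes were tested and 20 are members. After siNAE1, 5 of the 20 members were called higher, SNHG19, SNHG4, SNHG10, SNHG3 and SNHG12, beside 5.29% of all tested genes, and the lowest value was -0.86 for EPB41L4A-AS1. SNHG12 sat on the threshold, at 1.01, and was below it by library totals (0.88) and without control replicate 1 (0.99), control replicate 3 (0.95) or siNAE1 replicate 3 (0.97). The median of the 20 was 0.38, beside 0.00 for all tested genes. After siUBE2M, 3 were called lower, SNHG11, SNHG8 and SNHG15, beside 3.89% of all genes, and the highest value was 0.89 for SNHG19, with a median of 0.02 beside 0.01. After siURM1, SNHG16 was called higher and SNHG11 and SNHG8 lower, beside 2.89% and 4.76% of all genes, with a median of 0.10 beside -0.02. Of all 23 tested, 6 were called higher and 1 lower after siNAE1, 3 lower after siUBE2M, and 1 higher and 2 lower after siURM1. By adjusted p alone, 12 of the 20 hosts were higher and 4 lower after siNAE1, 8 and 9 after siUBE2M, and 10 and 7 after siURM1. The shares of all tested genes by that rule were 27.7% and 27.1%, 22.8% and 22.6%, and 21.0% and 21.0%.

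SNHG4 had 55.8, 56.7 and 51.8 CPM in the control libraries, 187, 178 and 173 after siNAE1, 70.7, 68.4 and 68.3 after siUBE2M and 64.3 and 67.2 after siURM1. Only the siNAE1 libraries were far above the controls, with 1.83 ± 0.07 (adjusted p = 1.1e-25). SNHG4 overlaps a listed MATR3 gene (mean 0.246 CPM) on its own strand, so its counts are uncertain. SNHG3, which overlaps RCC1 on its own strand so that its counts are uncertain, had 113, 114 and 108 CPM in the control libraries, 247, 235 and 258 after siNAE1, 197, 187 and 201.5 after siUBE2M and 124 and 138 after siURM1, and its fold changes were 1.26 ± 0.06 (adjusted p = 4.9e-21), 0.86 ± 0.06 (adjusted p = 4.5e-15) and 0.31 ± 0.07 (adjusted p = 3.1e-04). SNHG10 rose after siNAE1 by 1.67 ± 0.13 (adjusted p = 2.5e-14) and SNHG12 by 1.01 ± 0.09 (adjusted p = 1.2e-13). SNHG15 had 187, 176 and 175 CPM in the control libraries, 147, 161 and 161 after siNAE1, 76.6, 78.2 and 87.9 after siUBE2M and 104 and 106 after siURM1. It fell after siUBE2M, with -1.09 ± 0.07 (adjusted p = 2.4e-17), and gave -0.68 ± 0.08 (adjusted p = 6.3e-10) after siURM1. After siNAE1 its CPM lay below all controls, but on the TMM scale the change was -0.07 ± 0.07 (adjusted p = 0.36). SNHG8 and SNHG11 were below control in each knockdown, SNHG8 with -0.70, -1.14 and -1.02 and SNHG11 with -0.72, -1.20 and -1.09, each with an adjusted p of at most 3.5e-08. The call of SNHG8 after siURM1 was lost without control replicate 2 (-0.97) or siURM1 replicate 2 (-0.92), and in a fit with a term for replicate number (-0.996). The levels are of host RNA with a poly(A) tail. The snoRNAs themselves were not analysed here.

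**Figure D4:**
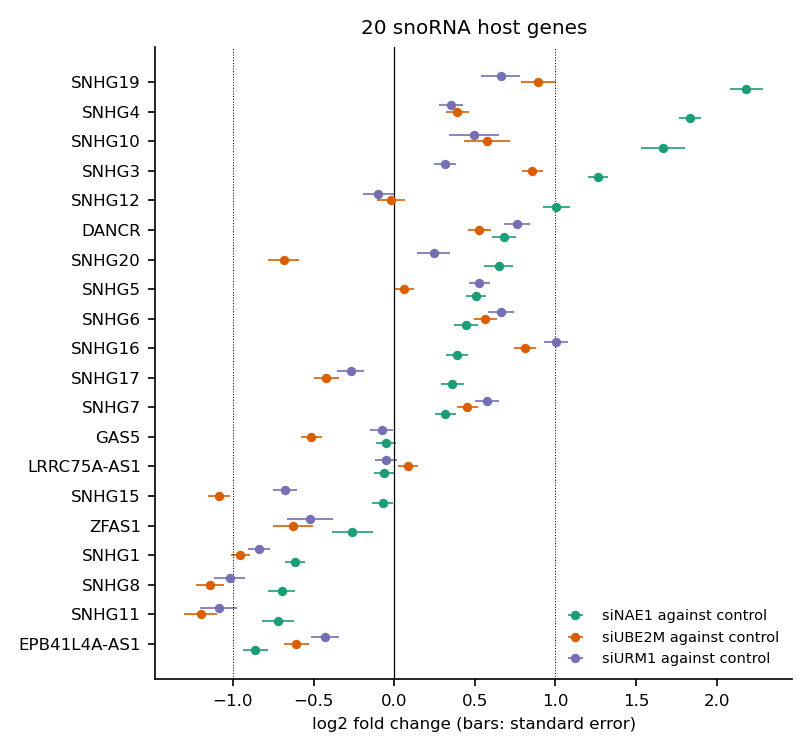
log2 fold change against control, with standard error, of the 20 snoRNA host genes among the members, ordered by the value after siNAE1; dotted lines mark an absolute log2 fold change of 1. Hosts run from 2.18 for SNHG19 after siNAE1 to -1.20 for SNHG11 after siUBE2M, and SNHG20 lies on opposite sides of 0 in siNAE1 and siUBE2M.

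Of 41 listed hosts of microRNAs, 6 are members: FTX, MIR503HG, MIR600HG, MIR17HG, MIR34AHG and MIR222HG. Against control they ran from -0.63 (MIR503HG) to 0.44 (FTX) after siNAE1, from -0.48 (MIR503HG) to 0.52 (MIR600HG) after siUBE2M and from -0.61 (MIR34AHG) to 0.94 (MIR222HG) after siURM1, all short of a 2-fold change. MIR600HG shares its strand with the overlapping gene STRBP, so its counts are uncertain. The medians of the 6 members were -0.09, -0.17 and 0.44. Of the 22 listed hosts tested, 1 was called lower after siNAE1 (beside 8.64% of all genes), 1 higher after siUBE2M (3.21%) and 3 higher after siURM1 (2.89%), and the medians of the 22 were 0.34, 0.06 and -0.02. MIR222HG and MIR503HG separated siURM1 from siUBE2M. For these 2 hosts, 3 of the mature microRNAs that lie inside them are shown, chosen for the microRNAs the hosts are known for, with the seed, bases 2 to 8, in capitals (RefSeq, GRCh38.p14). Of the microRNAs inside MIR222HG, miR-221-3p and miR-222-3p share the seed GCUACAU, and miR-222-5p has another.
hsa-miR-221-3p (chrX:45746180-45746202, minus strand): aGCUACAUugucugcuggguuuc
hsa-miR-222-3p (chrX:45747036-45747056, minus strand): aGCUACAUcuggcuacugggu
hsa-miR-503-5p (chrX:134546371-134546393, minus strand): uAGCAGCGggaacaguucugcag
MIR222HG (chrX:45745211-45770274, minus strand) had 14.1, 15.5 and 14.8 CPM in the control libraries, 14.7, 12.2 and 13.9 after siNAE1, 10.2, 9.87 and 11.2 after siUBE2M and 24.8 and 28.8 after siURM1. The siURM1 libraries were the highest and the siUBE2M libraries the lowest, and siUBE2M against siURM1 gave -1.39 ± 0.13 (adjusted p = 9.0e-12). MIR503HG (chrX:134543337-134546632, minus strand) had 35.3, 31.8 and 29.2 CPM in the control libraries, 18.3, 18.9 and 19.8 after siNAE1, 22.2, 22.3 and 21.99 after siUBE2M and 41.5 and 48.1 after siURM1. It too was highest after siURM1, with -1.04 ± 0.11 (adjusted p = 7.6e-11) for siUBE2M against siURM1, which was -0.94 without siURM1 replicate 2, and -1.20 ± 0.11 (adjusted p = 2.1e-12) for siNAE1 against siURM1. The libraries hold polyadenylated RNA and do not measure the mature microRNAs.

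Of the well-studied regulatory lncRNAs on a list of 31 names, 16 are members, and 28 genes were tested. Of the 28, 2 were called higher and 1 lower after siNAE1, beside 5.29% and 8.64% of all genes. The only member among them was KCNQ1OT1, and the lowest member was MALAT1 at -0.49 ± 0.09 (adjusted p = 1.0e-04). After siUBE2M the 16 members ran from -0.67 (MALAT1) to 0.53 (DANCR), and after siURM1 from -0.41 (CRNDE) to 0.76 (DANCR), all short of 2-fold. By adjusted p alone, 10 of the 16 members passed after siNAE1, beside 54.8% of all genes, 11 after siUBE2M, beside 45.4%, and 5 after siURM1, beside 41.9%. The medians of the 16 were -0.07, -0.08 and 0.02, and those of the 28 were -0.06, -0.17 and -0.05. MALAT1 had 140.0, 123 and 125 CPM in the control libraries, 84.6, 81.2 and 88.3 after siNAE1, 81.5, 79.5 and 74.1 after siUBE2M and 104 and 153 after siURM1. The siNAE1 and siUBE2M libraries were below all controls, and the 2 siURM1 libraries lay on either side of them, with 0.08 ± 0.10 (adjusted p = 0.57). DANCR, also a snoRNA host, was above control in every knockdown library, with 0.68, 0.53 and 0.76 and an adjusted p of at most 7.1e-08.

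The stress-responsive list has 5 members, GAS5, NEAT1, GABPB1-AS1, PURPL and MIR34AHG, of 13 genes tested, of which 1 was called lower after siNAE1 (beside 8.64% of all genes), 1 higher and 1 lower after siUBE2M (3.21% and 3.89%) and 1 higher after siURM1 (2.89%). GABPB1-AS1, which starts opposite a subunit gene of the factor GABP, had 177, 171 and 163 CPM in the control libraries, 88.2, 69.8 and 75.4 after siNAE1, 116, 110.0 and 93.03 after siUBE2M and 75.4 and 85.6 after siURM1. Every knockdown library was below every control library, with -1.01 ± 0.08 (adjusted p = 4.1e-15), -0.62 ± 0.07 (adjusted p = 2.4e-09) and -0.99 ± 0.08 (adjusted p = 6.9e-13). The siNAE1 call was lost without control replicate 1 (-0.985) or 2 (-0.996) or siNAE1 replicate 2 (-0.940) or 3 (-0.993). PURPL, a p53-induced RNA, gave -0.97 ± 0.12 (adjusted p = 1.1e-08), -0.07 ± 0.11 (adjusted p = 0.67) and -0.73 ± 0.14 (adjusted p = 2.4e-05), and MIR34AHG, the p53-induced precursor of miR-34a, -0.37 ± 0.12 (adjusted p = 0.0097), 0.12 ± 0.12 (adjusted p = 0.43) and -0.61 ± 0.14 (adjusted p = 3.5e-04). The medians of the 5 were -0.37, -0.51 and -0.61, those of the 13 tested were -0.05, 0.05 and -0.45, and those of all genes 0.00, 0.01 and -0.02. Among the 5, the highest values were -0.05 (GAS5), 0.12 (MIR34AHG) and 0.17 (NEAT1). Of the imprinted lncRNAs, 4 genes were tested, 2 of them called higher after siNAE1 (beside 5.29% of all genes), and KCNQ1OT1 is the 1 member.

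The knockdowns were also compared with each other. Between siNAE1 and siUBE2M, 8 members were higher after siNAE1 (4.00%, against 2.87% of all genes) and 8 lower (4.00% against 5.01%). Between siNAE1 and siURM1, 8 were higher after siNAE1 (4.00% against 3.36%) and 5 lower (2.50% against 3.45%). Between siUBE2M and siURM1, 5 were higher after siUBE2M (2.50% against 3.53%) and 2 lower (1.00% against 1.98%). At this 2-fold threshold the shares were near the background. By adjusted p alone, 119, 108 and 74 of the 200 members differed, against 44.5%, 38.8% and 35.4% of all genes. Members called at the threshold are described next.

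AC091182.1 had 31.7, 33.03 and 30.97 CPM in the control libraries, 9.40, 9.41 and 12.1 after siNAE1, 31.9, 31.1 and 28.6 after siUBE2M and 10.2 and 9.33 after siURM1. It was at the control level after siUBE2M and far below after the other 2, with -1.51 ± 0.11 (adjusted p = 1.4e-14) for siNAE1 against siUBE2M and 1.61 ± 0.13 (adjusted p = 1.4e-13) for siUBE2M against siURM1. FBXL19-AS1, opposite the F-box protein gene FBXL19, had 22.4, 18.9 and 21.9 CPM in the control libraries, 24.8, 18.8 and 17.9 after siNAE1, 24.2, 26.3 and 20.4 after siUBE2M and 8.27 and 6.94 after siURM1. Only siURM1 was low, with 1.60 ± 0.15 (adjusted p = 7.9e-12) for siUBE2M against siURM1. LINC00641 had 54.2, 49.7 and 57.3 CPM in the control libraries, 67.6, 64.4 and 65.5 after siNAE1, 93.9, 97.8 and 81.5 after siUBE2M and 33.6 and 32.1 after siURM1. It was highest after siUBE2M and lowest after siURM1, a difference of 1.44 ± 0.09 (adjusted p = 5.4e-17).

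HOXD-AS2, an antisense gene of the HOXD cluster, had 17.1, 15.05 and 19.5 CPM in the control libraries, 6.77, 5.37 and 7.59 after siNAE1, 17.5, 21.4 and 18.2 after siUBE2M and 14.5 and 19.2 after siURM1. The siNAE1 libraries were below all others, with -1.48 ± 0.15 (adjusted p = 1.7e-11) against siUBE2M and -1.33 ± 0.16 (adjusted p = 4.0e-09) against siURM1. SNHG20, which shares its strand with SEC14L1 and is therefore uncertain in its counts, had 35.4, 32.3 and 30.8 CPM in the control libraries, 46.7, 46.8 and 47.9 after siNAE1, 17.5, 19.7 and 21.6 after siUBE2M and 34.7 and 38.5 after siURM1. It was lowest after siUBE2M, and siNAE1 against siUBE2M gave 1.33 ± 0.10 (adjusted p = 2.4e-15). SNHG4 and SNHG19 were higher after siNAE1 than after siUBE2M, by 1.44 ± 0.07 (adjusted p = 2.0e-21) and 1.29 ± 0.10 (adjusted p = 1.5e-14). Against siURM1 the same genes gave 1.48 ± 0.08 (adjusted p = 9.7e-20) and 1.52 ± 0.11 (adjusted p = 1.4e-14), and AL645608.7 1.91 ± 0.18 (adjusted p = 6.1e-12). AC093157.1 and FLJ46906 were lower after siNAE1 than after siURM1, with -1.64 ± 0.18 (adjusted p = 4.3e-10) and -1.36 ± 0.13 (adjusted p = 2.9e-11), and FLJ46906 was lower than after siUBE2M, with -1.58 ± 0.12 (adjusted p = 1.9e-14).

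Of the members, 119 had a tested protein-coding partner that overlapped them on the opposite strand or started within 1000 bases of their start on that strand. Most of the 119 partners changed less than 2-fold: 111 did after siNAE1, 116 after siUBE2M, 113 after siURM1 and 114 for the mean of the 3 knockdowns. Among pairs whose member was called lower the same counts were 21 of 22, 11 of 11, 14 of 14 and 17 of 17, close to those of all partners, so nothing particular to these pairs is read from them. The members' medians in these pairs were -1.46, -1.29, -1.36 and -1.19, and the partners' -0.08, -0.04, 0.01 and 0.02. The exception after siNAE1 was FLJ46906, whose partner NHSL1 changed by -2.07 (adjusted p = 4.3e-22), with -0.07 (adjusted p = 0.51) after siUBE2M and -0.82 (adjusted p = 3.8e-09) after siURM1. DPH5, beside AC093157.1, gave -0.62 (adjusted p = 2.0e-09), -0.22 (adjusted p = 0.01) and -0.32 (adjusted p = 0.0014).

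PSMG3 gave -0.09 (adjusted p = 0.35) after siNAE1, -0.42 (adjusted p = 5.6e-05) after siUBE2M and -0.23 (adjusted p = 0.04) after siURM1, on the same side of 0 as PSMG3-AS1. RBM26 gave 0.19 (adjusted p = 0.0081), 0.16 (adjusted p = 0.033) and -0.16 (adjusted p = 0.048). SLC16A1 gave 0.62 (adjusted p = 3.9e-12), 0.16 (adjusted p = 0.025) and 0.89 (adjusted p = 4.3e-15), where SLC16A1-AS1 was lower. TPST1, which overlaps LINC00174, gave 0.79 (adjusted p = 3.0e-07), 0.29 (adjusted p = 0.051) and 0.62 (adjusted p = 1.5e-04). Among members called higher after siNAE1, KCNQ1OT1 had a partner that was called in the opposite direction: KCNQ1 gave -1.72 (adjusted p = 1.8e-07). The partners of SNHG19, SNHG10 and AC139530.1, which are TRAF7, GLRX5 and MRPL12, gave 0.36 (adjusted p = 1.5e-05), 0.46 (adjusted p = 1.9e-07) and -0.54 (adjusted p = 5.9e-07). The library protocol marked the strand, but the strand setting of the counting was not given in the sources used here, and without it reads of a member and of an overlapping partner cannot be told apart.

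**Figure D5:**
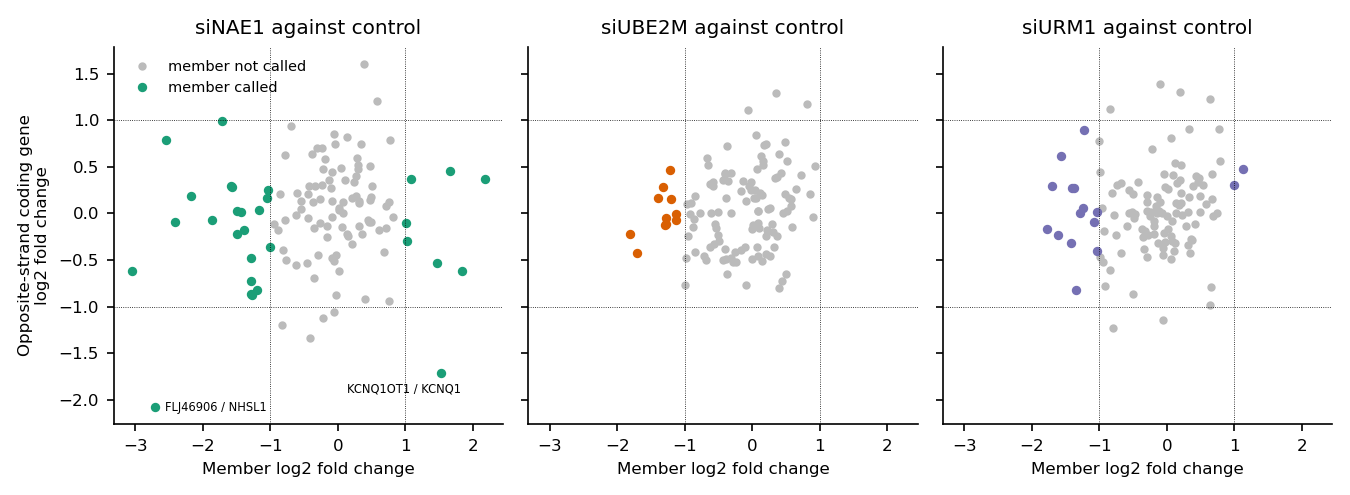
log2 fold change of the coding gene on the opposite strand (y axis) against that of its member (x axis) for 119 pairs in each knockdown; coloured points are pairs whose member was called, and dotted lines mark an absolute log2 fold change of 1. Pairs with a called member lie mostly between the horizontal lines, as do pairs in general, with the exceptions after siNAE1 of FLJ46906 with NHSL1 (-2.71 and -2.07) and KCNQ1OT1 with KCNQ1 (1.52 and -1.72).

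The shares of members called lower are given by class side by side, and the differences were not tested. Over all tested genes the shares were 8.64% after siNAE1, 3.89% after siUBE2M and 4.76% after siURM1. Of the 103 members that overlap an opposite-strand coding gene, 19.4% were called lower after siNAE1, 9.71% after siUBE2M and 12.6% after siURM1. Of the 21 members that only start within 1000 bases of such a gene the shares were 9.52%, 4.76% and 4.76%, and of the 76 members with neither 9.21%, 5.26% and 9.21%. By biotype, the antisense members had 18.2%, 7.79% and 13.0% called lower and the lincRNA members 12.5%, 8.33% and 8.33%. The 39 processed_transcript members had 12.8%, 7.69% and 12.8%. By level, in bands of 50 members from the most to the least abundant, 6%, 18%, 14% and 20% were called lower after siNAE1, 6%, 8%, 6% and 10% after siUBE2M, and 4%, 12%, 14% and 12% after siURM1.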

How the data were processed

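Polyadenylated RNA from 11 HEK293T cultures was sequenced as paired-end reads from libraries made with a strand-marking dUTP protocol. Per the study's methods and the submitters' processing notes, the authors used fastp for trimming, HISAT2 2.0.5 for alignment to GRCh38, and counted fragments per gene with featureCounts 1.5.0-p3. The annotation release and the strand setting of the counting were not given in the sources used here. The authors deposited raw counts per gene and, from gene length and library size, FPKM. FPKM served only for levels between genes and as an alternative way to rank members.

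Groups followed the sample labels, and every column belonged to 1 library. The tests used edgeR 4.0.16 in R 4.3.3: filterByExpr, TMM scaling and one robust quasi-likelihood fit of 4 groups over 18368 genes, with contrasts for each knockdown against control, the mean of the 3 knockdowns against control, and each pair of knockdowns. A call needed a Benjamini-Hochberg adjusted p under 0.05 and a change of 1 or more on the log2 scale. The estimated biological coefficient of variation was 7.06%, and p-values measure the spread between these libraries. Errors are the standard error of the fit or the SD over libraries, and values printed for a member are in CPM per library. The fit was tested on simulated data before use. Replicate numbers did not pair the samples: over 15 pairs of libraries with the same number, deviations from the group means correlated between -0.0657 and 0.0787.

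Members and lists were chosen with earlier results of these data known. Named in the text are the 10 most abundant members (1 without values), the 8 highest and 8 lowest called in each knockdown, the 5 highest and lowest called by the mean contrast, the 3 highest and lowest called in each pair of knockdowns, the extremes and the most abundant of the lists, the genes around the limit of 200, the siRNA targets, and opposite-strand neighbours. HOXB-AS3 is named outside this rule, chosen after its values were seen. The lists were snoRNA hosts, microRNA hosts, well-studied regulatory, stress-responsive and imprinted lncRNAs. Start regions printed are the 2 lowest and the highest called by the mean contrast among those with a RefSeq entry, and GAS5. Alternatives covered the scaling, the filter, the test (DESeq2 1.42.0 and a fold-threshold test), the replicate block, each replicate left out, and the choice of members. Figures were drawn with matplotlib 3.10.9.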

Additional observations from a re-analysis of the deposited data

Results flagged for a closer look

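The results listed here differed between knockdowns by a direct test of one knockdown against the other (edgeR quasi-likelihood, Benjamini-Hochberg adjusted over all tested genes), and no explanation was tested. Groups of 2 or 3 libraries are too small to test single libraries as outliers.

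Between siNAE1 and siUBE2M, the log2 fold changes were -1.58 for FLJ46906 (adjusted p = 1.9e-14), -1.51 for AC091182.1 (1.4e-14) and -1.48 for HOXD-AS2 (1.7e-11), and 1.44 for SNHG4 (2.0e-21), 1.33 for SNHG20 (2.4e-15) and 1.29 for SNHG19 (1.5e-14). FLJ46906 was at 7.52, 6.29 and 9.03 CPM in the siNAE1 libraries and 22.2, 24.5 and 24.3 in the siUBE2M libraries, and SNHG4 at 187, 178 and 173 and 70.7, 68.4 and 68.3. In both genes the groups did not overlap.

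Between siNAE1 and siURM1, they were -1.64 for AC093157.1 (adjusted p = 4.3e-10), -1.36 for FLJ46906 (2.9e-11) and -1.33 for HOXD-AS2 (4.0e-09), and 1.91 for AL645608.7 (6.1e-12), 1.52 for SNHG19 (1.4e-14) and 1.48 for SNHG4 (9.7e-20). AL645608.7 had 18.96, 18.6 and 25.7 CPM after siNAE1 and 5.21 and 6.26 after siURM1.

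Between siUBE2M and siURM1, they were -1.39 for MIR222HG (adjusted p = 9.0e-12) and -1.04 for MIR503HG (7.6e-11), and 1.61 for AC091182.1 (1.4e-13), 1.60 for FBXL19-AS1 (7.9e-12) and 1.44 for LINC00641 (5.4e-17). Each of the siUBE2M libraries lay above each siURM1 library in the last 3 genes and below in the first pair.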

How the results depend on the processing

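The counts of members called, main 40, 16 and 24 for siNAE1, siUBE2M and siURM1 against control, 26 for their mean, and 16, 13 and 7 for siNAE1 against siUBE2M, siNAE1 against siURM1 and siUBE2M against siURM1, stayed within 1.5 times under DESeq2, 3 other scalings, no filter, a filter of 10 counts in every library, ranking by the mean of group means, and fits of 2 groups. Leaving out 1 library gave 38 to 43, 16 to 19, 21 to 27, 23 to 26, 14 to 20, 12 to 16 and 7 to 9. With the replicate block they were 40, 16, 25, 25, 17, 13 and 7, and no count moved by over 1.5 times and no median beyond the spread.

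Thresholds and membership moved the counts, as their construction implies. A test against the 2-fold threshold itself (glmTreat) called 26, 5, 9, 10, 7, 5 and 3 members, and no fold threshold 145, 134, 121, 139, 119, 108 and 74. The 72 lincRNA members alone gave 13, 7, 7, 10, 5, 5 and 3, and the 78 members without opposite-strand overlap 11, 5, 8, 9, 6 and 5, with the count of siUBE2M against siURM1 within 1.5 times. Ranking by mean FPKM, which kept 108 of the 200 members, gave 15 for the mean of the knockdowns and 11 for siUBE2M against siURM1.

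The small medians of the members were not stable. By library totals they were -0.21, -0.082 and -0.15, in place of -0.09, -0.02 and -0.06. The siNAE1 and siUBE2M medians turned positive when members were ranked by FPKM (0.059 and 0.073) or taken without opposite-strand overlap (0.048 and 0.00059), and the siUBE2M median was -0.14 for lincRNA members. Leaving out 1 library gave -0.123 to -0.0745, -0.0624 to 0.0106 and -0.143 to -0.0463. The siUBE2M median reversed without control replicate 2. Library totals also changed the split of calls, to 8 higher and 34 lower after siNAE1, 1 and 19 after siUBE2M and 2 and 29 after siURM1.

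Of 109 calls of named members, 17 came below 2-fold under at least 1 alternative, each with a main value of at most 1.14 in size, none below 0.88 in size, and all still past the adjusted p. The test against the 2-fold threshold itself, which called fewer members as given above, is not part of this tally. SNHG12 after siNAE1 did so under 8 alternatives (0.88 to 1.00, among them DESeq2 and library totals) and SNHG16 after siURM1 under 5 (0.91 to 0.99). With the replicate block SNHG8 after siURM1 (-0.996) and SNHG11 in the mean contrast (-0.999) lost their calls. In the mean contrast AL645608.7 (0.98 by library totals), AC016205.1 (-0.97 to -0.99) and PCBP1-AS1 (-0.97 to -0.98) did so, and MIR503HG for siUBE2M against siURM1 without siURM1 replicate 2 (-0.94). With 2 siURM1 libraries, its values rest on the spread of the other groups. Low counts limit little here, since no member had under 31 counts in a library.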

Other observations

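Antisense members of the HOX clusters, grouped after their values were seen, did not share a direction. HOXA11-AS had 13.1, 10.7 and 9.95 CPM in the control libraries, 11.4, 9.67 and 12.4 after siNAE1, 21.3, 19.5 and 20.9 after siUBE2M and 22.2 and 24.03 after siURM1. It was higher after siUBE2M and siURM1, with log2 fold changes of 0.92 ± 0.12 (adjusted p = 2.8e-08) and 1.12 ± 0.13 (adjusted p = 2.2e-09), and 0.10 ± 0.13 (adjusted p = 0.53) after siNAE1. HOXB-AS3 fell after siURM1, at -1.04 ± 0.16 (adjusted p = 1.9e-06), with -0.38 (adjusted p = 0.017) after siNAE1 and 0.20 ± 0.13 (adjusted p = 0.21) after siUBE2M. For siUBE2M against siURM1 it gave 1.24 ± 0.16 (adjusted p = 1.1e-07). The siURM1 call was lost without control replicate 1 (-0.97) or siURM1 replicate 2 (-0.97). HOXD-AS2 fell after siNAE1, with -1.28 ± 0.15 (adjusted p = 4.5e-10). HOTAIR of the HOXC cluster gave -0.43 ± 0.11 (adjusted p = 0.0012), 0.16 ± 0.11 (adjusted p = 0.22) and 0.09 ± 0.12 (adjusted p = 0.6), HOTAIRM1 -0.06 ± 0.10 (adjusted p = 0.62), 0.17 ± 0.09 (adjusted p = 0.13) and 0.19 ± 0.10 (adjusted p = 0.13), and HOXA-AS2 stayed between -0.16 and 0.04.

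Members also differed in how much they varied among the control libraries. Their coefficient of variation there had a median of 6.37% and reached 25.4%.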
